A study of Mus musculus with 6 samples.

Results

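The extracellular matrix genes described here were the 109 of 16375 genes in the deposited liver table whose symbols name collagen chains (Col), laminin chains (Lama, Lamb, Lamc), ADAMTS proteases and ADAMTS-like proteins (Adamts), matrix metalloproteinases (Mmp), their tissue inhibitors (Timp), fibulins (Fbln), fibrillins (Fbn) or lysyl oxidases (Lox). The rule reads the symbol and no measured value. The matrix is the protein scaffold outside cells. Fibrillar collagens form its cables, collagen IV and laminins form the sheets of basement membranes, and fibrillins and fibulins belong to elastic fibres. Lysyl oxidases cross-link collagen and elastin, metalloproteinases and ADAMTS enzymes cut matrix proteins, and TIMPs inhibit metalloproteinases. In a healthy liver the matrix is sparse, and hepatic stellate cells, portal fibroblasts and the endothelium of the sinusoids make much of it, while fibrosis is the excess of fibrillar collagen.

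The comparison was between liver RNA from 3 libraries of control mice (control 1 to 3) and 3 libraries of mice given inosine, a purine nucleoside, by intraperitoneal injection (inosine 1 to 3). The title of the series places it in work on A-to-I RNA editing in the liver and on cancer cachexia, the wasting seen with tumours. The sources used here do not give the treatment of the control mice or the dose, timing, strain, sex and age of the animals, and neither group is labelled as carrying a tumour. The labels do not state that the libraries come from separate animals, so the spread behind each p-value is that between libraries and may be technical. Libraries held 16383896 to 17505035 counts and 14703 to 14977 detected genes, and no pair within a group agreed within sampling noise. The label liver was borne out by the hepatocyte markers, with albumin (Alb) at 45337 to 71374 TPM across the libraries. TPM is a level scaled for transcript length.

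Per length, 1 collagen chain held about as much as the rest of the list together, or more. Col18a1, the collagen XVIII chain of basement membranes whose tail is released as endostatin, had 184, 167 and 190 TPM in the control libraries and 186, 220 and 166 TPM in the inosine libraries. That was 53.4% of the mean TPM summed over all 109 genes, and 49.7% to 57.1% in single libraries. Mmp19, a secreted metalloproteinase, came next with 12% of that sum. The next in order of mean TPM were Col27a1, Mmp14, Col14a1, Mmp15, Col3a1 and Timp2, between 10.1 and 5.86 TPM. These neighbours overlapped in their libraries, so their order is not firm. Only these 8 genes reached a mean of 5 TPM, 32 reached 1 TPM, and 77 lay under it. Among the 77 were Lox, Timp1 and Mmp9, with 12, 9 and 16 counts in all 6 libraries together.

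**Figure D1:**
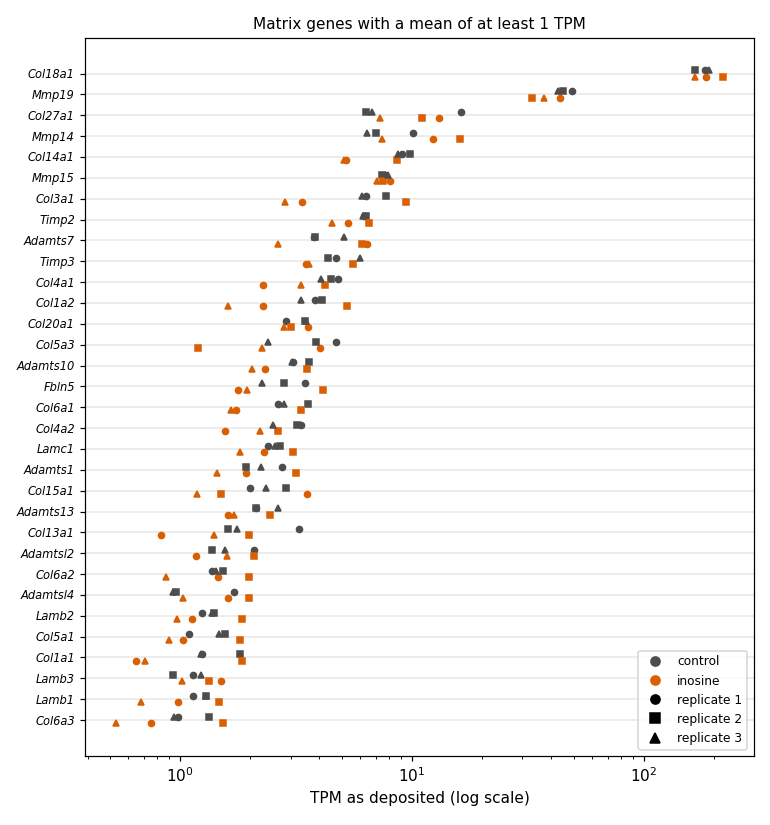
Deposited TPM (log axis) of the 32 matrix genes with a mean of at least 1 TPM. Each row is a gene and each point a library, with grey for control, orange for inosine and the shape for the replicate number. Col18a1 stands at 166 to 220 TPM in all 6 libraries, and the inosine 2 squares lie to the right of inosine 1 and 3 in most rows.

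The question was which of these genes differed between inosine and control livers. None passed the threshold. edgeR's quasi-likelihood test called 0 of the 65 members that had enough counts to be tested, against 0.00811% of all 12326 genes tested, which is 1 gene. The smallest edgeR adjusted p among the members was 0.18, for Col14a1. DESeq2, run as an alternative, called Col14a1 alone (adjusted p = 0.031) and 1.89% of all genes, and limma-voom called 0 members. In the authors' deposited table, Col14a1 was likewise the only member with a q-value under 0.05 (q = 0.044), where 1.17% of the genes with a q-value passed.

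Before adjustment, the values leaned downward. At an unadjusted edgeR p under 0.05, 10 members were lower with inosine, or 15.4%, where 7.26% of all genes were. In the other direction 2 members were higher, or 3.08%, against 7.21% of all genes. The log2 fold change (inosine over control) was negative in 47 of the 65 members, or 72.3%, compared with 51.8% of all genes, and its median was −0.27 against −0.01. The members were measured less precisely than most genes, with a median level of 3.42 CPM (counts scaled to a fixed library total) against 16.3 and a median standard error (SE) of 0.27 against 0.13. Of the 44 members not tested, each had 1 to 54 counts in the 6 libraries together, and 23 had fewer than 10.

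Over all members tested, the median was below the controls in inosine 1 and inosine 3 and not in inosine 2. Relative to the control mean, the median member stood at −0.38, 0.03 and −0.38 (log2) in inosine 1, 2 and 3, and at −0.04, 0.10 and −0.07 in control 1, 2 and 3. Inosine 2 therefore lay within the range of the controls. In 3 of the role groups with at least 3 genes tested its median did lie below all controls, at −0.24 for collagen IV, −0.24 for FACIT collagens and −0.45 for secreted metalloproteinases. The lowest library of all 6 was inosine 3 for 22 members, or 33.8%, against 17.8% of all genes. It was inosine 1 for 20 members, or 30.8% against 14.3%, but inosine 2 for only 6, or 9.23% against 16.3%. Inosine 2 was the highest of the 3 inosine libraries in 46 members, or 70.8%, compared with 33.3% of all genes. Without inosine 2, 24 members were lower at an unadjusted edgeR p under 0.05, or 36.9% against 6.58% of all genes, and still 0 passed adjustment. Without control 2, only 3 members were lower, or 4.62% against 4.90% of all genes, and without control 1 the shares were 9.23% (6 members) and 9.60%. Without control 3, 6 members were lower, or 9.23% against 5.64%. Without inosine 1, 8 were lower, or 12.3% against 6.04%. Without inosine 3, 5 members were lower, or 7.69% against 5.77%. The median log2 fold change stayed negative in each omission, from −0.13 to −0.42.

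**Figure D2:**
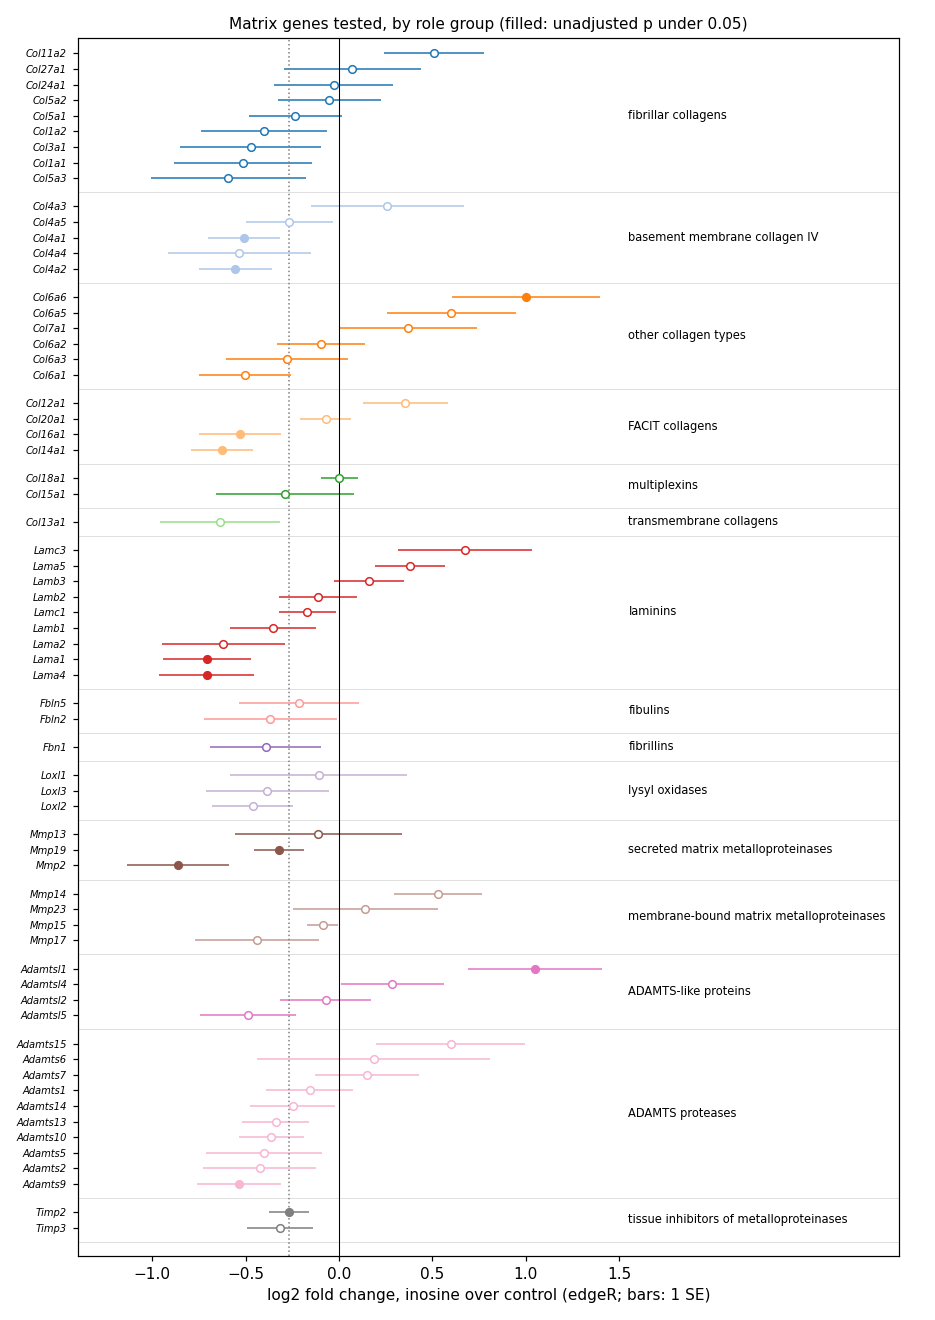
Log2 fold change of inosine over control (edgeR) for the 65 matrix genes tested, grouped by role, with bars of 1 SE. Filled points have an unadjusted p under 0.05, and the dotted line is the median of the 65, −0.27. Most points lie left of 0, and 0 of them passed adjustment over all genes.

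Groups that did not overlap were counted on TMM-scaled CPM, which corrects for differences in library composition. All 3 inosine libraries lay under all 3 controls in 12 members, or 18.5% (9.8% of all genes), and above them in 3, or 4.62% (11.1% of all genes). On the deposited TPM, which carries no such correction, 4 members were lower without overlap (5.25% of all genes) and 5 were higher (11.7% of all genes). The 4 that were lower on both scales were Col14a1, Loxl2, Mmp2 and Adamtsl5. Those higher on both were Col6a6, Lama5 and Adamtsl1. These 7 were singled out after their values were seen. Values below are TMM-scaled CPM unless TPM is named.

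The fibrillar collagens, the chains that form banded fibrils, had 9 of 10 members tested, 0 with an unadjusted p under 0.05 and a median log2 fold change of −0.23. Col3a1, the chain of type III collagen, had 26.1, 33.7 and 25.7 CPM in the controls and 13.3, 35.7 and 12.5 CPM with inosine. Col1a1, one of the chains of type I collagen, had 5.51, 8.4 and 5.54 CPM in the controls and 2.76, 7.45 and 3.37 CPM with inosine. In both genes inosine 1 and 3 lay below every control and inosine 2 among or above them, so the groups overlapped. The log2 fold changes were −0.47 (SE 0.38, edgeR adjusted p = 0.58) for Col3a1 and −0.52 (SE 0.37, edgeR adjusted p = 0.54) for Col1a1. Col1a2, the partner chain in type I collagen, had its libraries in the same order as Col3a1, with 14.7, 16.7 and 13.1 CPM in the controls and 8.5, 18.4 and 6.73 CPM with inosine. The TPM ratio of Col1a1 to Col1a2 was 0.327, 0.439 and 0.369 in the controls and 0.284, 0.353 and 0.438 with inosine, so the groups overlapped in this ratio.

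Type V collagen, which sits inside type I fibrils, gave smaller differences for Col5a1 (−0.23) and Col5a2 (−0.05). Its remaining chain Col5a3 ranged from 4.98 to 21.4 CPM, and there inosine 2 was the lowest of all libraries. Col27a1, next after Mmp19 in mean TPM, had 74, 28 and 29.9 CPM in the controls and 57.3, 44.8 and 36.4 CPM with inosine. Its control 1 library was the highest of the 6, and its log2 fold change was 0.07 (SE 0.37). Col11a2 had the highest estimate of the group, 0.51 (SE 0.27), and its libraries overlapped on CPM.

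Col1a2 and Col3a1 followed the same order within the inosine group, with replicate 2 far above replicates 1 and 3. Inosine 2 was the highest inosine library in 46 of the 65 members tested, so this is not particular to the pair. The 120 bases before the annotated starts of Col1a2 and Col3a1 are shown side by side (RefSeq, build GRCm38.p6, plus strand, 5′ to 3′). The pair was chosen after its values were seen, and whether these sequences bear on the order was not tested. Capitals mark the motifs searched on either strand, which were CCAAT, the TATA letters TATAAA, and the GC-rich run GGGCGG. The windows are chr6:4505498-4505617 for Col1a2 and chr1:45311418-45311537 for Col3a1.
Col1a2: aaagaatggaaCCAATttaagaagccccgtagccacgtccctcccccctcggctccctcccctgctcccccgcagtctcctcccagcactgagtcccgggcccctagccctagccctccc
Col3a1: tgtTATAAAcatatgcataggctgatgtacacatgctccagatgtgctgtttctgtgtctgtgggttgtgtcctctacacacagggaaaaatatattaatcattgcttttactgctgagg
The stretch of Col1a2 held CCAAT at position −109 from the start, and that of Col3a1 held TATAAA at −117. RefSeq windows of 300 bases (250 before the start and 50 after) were matched for 75 of the 109 genes, in 84 windows. CCAAT stood in 29.8% of them against 37.4% of all 32851 windows, TATAAA in 15.5% against 13.6%, and GGGCGG in 60.7% against 35.7%. A match is a run of letters and not a site.

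Collagen IV, the network-forming collagen of basement membranes, had all 5 members tested, with a median log2 fold change of −0.51. Its principal pair, Col4a1 and Col4a2, both had an unadjusted edgeR p under 0.05. Col4a1 had 23.7, 23.4 and 20.7 CPM in the controls and 10.9, 19 and 17.8 CPM with inosine. Col4a2 had 16, 16.3 and 12.5 CPM in the controls and 7.32, 11.6 and 11.5 CPM with inosine. In both genes the groups did not overlap and inosine 1 was the lowest library. On TPM, inosine 2 came within the control range for each. The log2 fold changes were −0.51 (SE 0.19, unadjusted p = 0.031, edgeR adjusted p = 0.30) and −0.56 (SE 0.20, unadjusted p = 0.022, edgeR adjusted p = 0.28).

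The TPM ratio of Col4a1 to Col4a2 lay between 1.4 and 1.61 in all 6 libraries. The 2 genes are neighbours read in opposite directions, at chr8:11248423-11362889 and chr8:11362805-11499287 (GRCm39, per the deposited table). Their spans overlap by 85 bases, and whether counting used the strand is not given, so reads from that stretch cannot be told apart. The RefSeq starts overlap too, by the 22 bases at chr8:11312805-11312826 (GRCm38.p6), shown on the plus strand because the first bases of both transcripts lie in them. Capitals again mark a searched motif, here GGGCGG.
Col4a1 and Col4a2 shared 5 prime end: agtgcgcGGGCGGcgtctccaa
The other collagen IV chains were low, at 0.437 to 2.18 CPM, with log2 fold changes of −0.53 for Col4a4, −0.27 for Col4a5 and 0.26 for Col4a3, and their groups overlapped.

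The multiplexins, the basement membrane collagens Col15a1 and Col18a1, showed no shift that the libraries could resolve. Col18a1 had 743, 706 and 785 CPM in the controls and 712, 807 and 719 CPM with inosine, which gave a log2 fold change of 0.00 with an SE of 0.10 (edgeR adjusted p = 0.99). Its group means were 745 ± 39.7 and 746 ± 53.1 CPM (SD, n = 3). Col15a1 ranged from 5.05 to 13.4 CPM, and inosine 1 was its highest library.

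Laminins, the 3-chain proteins that nucleate basement membranes, had 9 of 11 members tested and a median log2 fold change of −0.17. Lama4, the alpha chain of vessel basement membranes, had 3.51, 4.44 and 4.55 CPM in the controls and 2.19, 3.49 and 1.93 CPM with inosine. Lama1, another alpha chain, had 3.33, 3.78 and 4.61 CPM in the controls and 2.25, 3.04 and 1.87 CPM with inosine. The groups did not overlap in either gene, though for Lama4 inosine 2 lay just under control 1. Both had a log2 fold change of −0.71, with an SE of 0.25 for Lama4 (unadjusted p = 0.023, edgeR adjusted p = 0.28) and 0.23 for Lama1 (unadjusted p = 0.017, edgeR adjusted p = 0.26).

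Lama5 went the other way, with 2.66, 2.46 and 2.33 CPM in the controls and 3.77, 2.92 and 2.99 CPM with inosine. All inosine libraries lay above the controls, and the log2 fold change was 0.38 (SE 0.19, unadjusted p = 0.080, edgeR adjusted p = 0.40). The shared chains Lamc1 (−0.17) and Lamb1 (−0.35), which pair with several alpha chains, overlapped between groups, as did Lamb2 (−0.11). Lamc1 was the most abundant laminin per length, with a mean of 2.48 TPM. Lama3, an alpha chain of the laminin of epithelial anchoring, had 53 counts in all libraries and was not tested.

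Of the FACIT collagens, which decorate fibril surfaces, 4 of 8 were tested. Col14a1, which binds the surface of collagen fibrils, had the smallest p of all members. It had 43.2, 49.4 and 42.9 CPM in the controls and 23.9, 37.7 and 26.1 CPM with inosine. Every inosine library lay below every control, and inosine 2 was the closest to them. The means were 45.2 ± 3.67 and 29.2 ± 7.46 CPM (SD, n = 3), with a log2 fold change of −0.63 (SE 0.17, unadjusted p = 0.0057, edgeR adjusted p = 0.18). Its log2 fold change in the authors' deposited table was −0.62.

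Col16a1, another FACIT chain, had 3.03, 3.78 and 2.8 CPM in the controls and 2.19, 2.63 and 1.81 CPM with inosine. Its groups did not overlap, and its log2 fold change was −0.53 (SE 0.22, unadjusted p = 0.043, edgeR adjusted p = 0.33). Col12a1 (0.35) and Col20a1 (−0.07) overlapped between groups.

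Collagen VI forms beaded microfilaments, and its members tested differed in sign. Col6a1 had a log2 fold change of −0.50 (SE 0.25), Col6a3 −0.28 and Col6a2 −0.10. Col6a6 had 0.726, 1.14 and 0.408 CPM in the controls and 1.18, 2 and 1.37 CPM with inosine. The groups did not overlap, but control 2 and inosine 1 nearly met. Its log2 fold change was 1.0 (SE 0.40, unadjusted p = 0.036, edgeR adjusted p = 0.31). Col6a5, next to it on chromosome 9, had 0.60 (SE 0.34) with overlapping groups. The TPM ratio of Col6a1 to Col6a2 was 1.91, 2.31 and 1.96 in the controls and 1.2, 1.67 and 1.92 with inosine. Col13a1, the 1 transmembrane collagen tested of 4, had −0.64 (SE 0.32), and its control 1 value of 7.32 CPM was the highest of the 6 libraries.

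The elastic fibre members were few and low. Fbn1, the main fibrillin of microfibrils, had 3.09, 2.82 and 2.39 CPM in the controls and 1.41, 3.04 and 1.87 CPM with inosine, and inosine 2 lay among the controls. Its log2 fold change was −0.39 (SE 0.30). Fbln5, which is needed for elastic fibre assembly, had −0.21 (SE 0.32), and Fbln2 −0.37 (SE 0.36). Neither passed at an unadjusted p under 0.05.

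Of the lysyl oxidases, 3 of 5 were tested, and all 3 had negative estimates. Loxl2, a collagen cross-linking enzyme, had 3.03, 3.36 and 3.33 CPM in the controls and 1.74, 2.69 and 2.62 CPM with inosine. The groups did not overlap, and the log2 fold change was −0.46 (SE 0.22, unadjusted p = 0.065, edgeR adjusted p = 0.37). Loxl3 had −0.39 and Loxl1 −0.11, with overlapping groups. Lox itself, at 12 counts in all, and Loxl4, at 47, were below the filter.

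Among the secreted metalloproteinases, 3 of 12 were tested. Mmp2, the gelatinase that cuts denatured collagen and collagen IV, had 2.84, 3 and 2.33 CPM in the controls and 1.52, 1.95 and 0.998 CPM with inosine. No libraries overlapped, and the log2 fold change of −0.86 (SE 0.27, unadjusted p = 0.013, edgeR adjusted p = 0.24) was the most negative of all members tested. Mmp19 had 116, 112 and 104 CPM in the controls and 99.95, 70.7 and 95 CPM with inosine. Here inosine 2 was the lowest library, and the log2 fold change was −0.32 (SE 0.13, unadjusted p = 0.042, edgeR adjusted p = 0.32). Mmp13, a collagenase, overlapped between groups at 0.394 to 1.02 CPM. The other 9 secreted members, with Mmp3, Mmp8 and Mmp9 among them, were too low to test.

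The membrane-bound metalloproteinases had 4 of 7 members tested and a median log2 fold change of 0.03. Mmp14, the membrane enzyme that activates the Mmp2 proenzyme with the help of Timp2, had 27.7, 20.2 and 17.9 CPM in the controls and 32.6, 40.1 and 21.9 CPM with inosine. Control 1 lay above inosine 3, so the groups overlapped, and the log2 fold change was 0.53 (SE 0.24, unadjusted p = 0.056, edgeR adjusted p = 0.36). Mmp15, a related membrane enzyme, had 24.1, 24.8 and 25.5 CPM in the controls and 24.4, 21.6 and 24 CPM with inosine, with a log2 fold change of −0.09 and an SE of 0.08, the smallest SE among the members named here. Mmp17, another of these enzymes, had −0.44 (SE 0.33) with overlapping groups.

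The TIMPs were represented by Timp2 and Timp3. Timp2, which inhibits Mmp2 and also takes part in its activation, had 16.2, 17.4 and 16.4 CPM in the controls and 13.3, 15.5 and 12.7 CPM with inosine. The groups did not overlap on this scale but did on TPM, where inosine 2 was the highest library at 6.53. The log2 fold change was −0.27 (SE 0.11, unadjusted p = 0.038, edgeR adjusted p = 0.31). Timp3, which binds to the matrix, had −0.32 (SE 0.18) with overlapping groups. The TPM ratio of Mmp14 to Timp2 was 1.63, 1.1 and 1.03 in the controls and 2.33, 2.46 and 1.63 with inosine, which met at control 1 and inosine 3. Timp1, the TIMP known for its rise in fibrosis, had 9 counts in all 6 libraries and Timp4 had 2.

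The ADAMTS proteases had 10 of 18 members tested and a median log2 fold change of −0.29. Adamts9, a versican-cutting protease, had 1.94, 2.88 and 2.39 CPM in the controls and 1.58, 1.78 and 1.62 CPM with inosine. Its groups did not overlap, and its log2 fold change was −0.53 (SE 0.22, unadjusted p = 0.045, edgeR adjusted p = 0.33). Adamts13, which cuts von Willebrand factor and is made by hepatic stellate cells, had −0.34 (SE 0.18), and Adamts10 −0.36 (SE 0.17). Adamts2 (−0.43) and Adamts14 (−0.25), which remove the amino-terminal propeptide of fibrillar procollagens, overlapped between groups. Adamts7, the most abundant of the family per length, had 14.9, 15.7 and 20 CPM in the controls and 23.4, 22.2 and 10.4 CPM with inosine, with inosine 3 the lowest of all.

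ADAMTS-like proteins lack the protease domain. Adamtsl1 had the highest log2 fold change of all members tested, with 0.363, 0.48 and 0.583 CPM in the controls and 1.24, 0.687 and 1.06 CPM with inosine. The groups did not overlap on either scale, and the log2 fold change was 1.05 (SE 0.36, unadjusted p = 0.019, edgeR adjusted p = 0.26). These levels are close to the 0.171 to 0.183 CPM that 3 counts represent. Adamtsl5 had −0.49 (SE 0.26) without overlap, while Adamtsl4 (0.29) and Adamtsl2 (−0.07) overlapped.

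**Figure D3:**
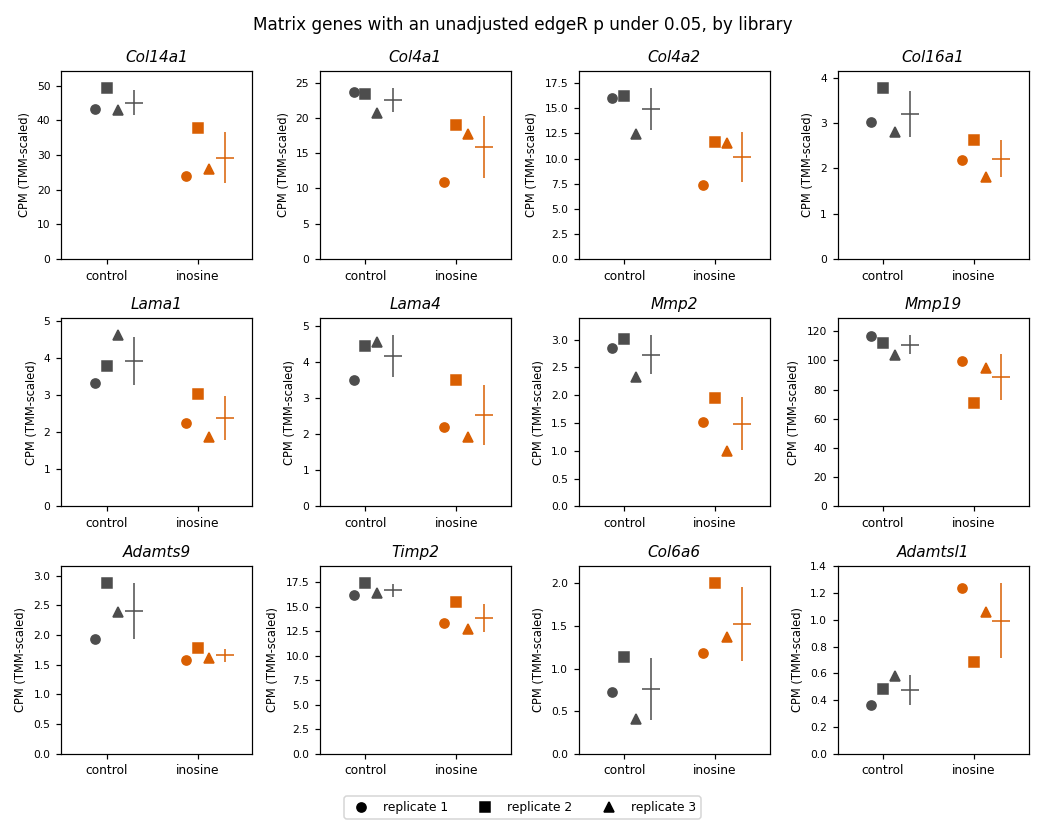
TMM-scaled CPM (linear axes from 0) of the 12 matrix genes with an unadjusted edgeR p under 0.05, 1 panel per gene. Points are libraries, with shapes for replicate numbers, and the cross beside them is the mean with bars of 1 SD. In 10 panels the orange inosine points lie below the grey controls, and in Col6a6 and Adamtsl1 they lie above.

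Genes that act with the members were described from 8 further lists, of which 113 genes were tested. At an unadjusted edgeR p under 0.05, 17 were lower, or 15% against 7.26% of all genes, and 4 higher, or 3.54% against 7.21%. By edgeR, 0 passed adjustment. Collagen synthesis enzymes (20 tested) had a median log2 fold change of 0.06. P4ha1, the prolyl hydroxylase subunit that modifies new collagen chains, had 15.3, 12.5 and 8.87 CPM in the controls and 23.7, 18.4 and 37.7 CPM with inosine. All inosine libraries lay above the controls, with a log2 fold change of 1.12 (SE 0.29 and adjusted p = 0.18 by edgeR; DESeq2 adjusted p = 0.0038). Plod3, a lysyl hydroxylase, had 0.31 (SE 0.09).

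In the other direction, proteoglycans (7 tested, median −0.35) had negative estimates in all 7, among them the small proteoglycans Prelp (−0.51, SE 0.15) and Bgn (−0.36, SE 0.15). Elastic fibre partners (12 tested, median −0.34) were negative in 11, with Emilin2, an elastic fibre glycoprotein, at −0.60 (SE 0.18). The exception was Mfap1a, at 0.28 (SE 0.09). Its role in elastic fibres is doubtful, so it may not belong in this list. Mfap1a also has a near-identical copy in the mouse genome, so its count is uncertain.

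Basement membrane partners (13 tested, median −0.10) held Fras1, a basement membrane protein of epithelia, with 5.02, 5.52 and 6.13 CPM in the controls and 1.24, 2.46 and 2.99 CPM with inosine. Its log2 fold change was −1.32 (SE 0.29 and adjusted p = 0.13 by edgeR; DESeq2 adjusted p = 0.0036). Sparc, a collagen-binding glycoprotein, had −0.43 (SE 0.14). Among the matrix glycoproteins (11 tested, median −0.20), Ntn4 had −0.80 (SE 0.26) and Igfbp7 −0.44 (SE 0.15).

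The lists of signalling and receptors lay near 0. TGF-beta signalling (14 tested, median −0.03) included Ccn1, a matricellular protein, with 10.7, 8.52 and 10.9 CPM in the controls and 6.02, 5.78 and 4.93 CPM with inosine. Its libraries did not overlap, and the log2 fold change was −0.84 (SE 0.15 and adjusted p = 0.087 by edgeR; DESeq2 adjusted p = 0.0041). Smad3, a mediator of TGF-beta signals, had −0.33 (SE 0.11). Matrix receptors (20 tested, median −0.03) held the integrin chains Itga5 at 0.32 (SE 0.10) and Itga8 at −0.65 (SE 0.25). Other matrix proteases and inhibitors (16 tested, median −0.15) held Plau, the urokinase gene, at −1.13 (SE 0.36) and Ctss, a macrophage cathepsin, at −0.36 (SE 0.13). None of these 6 signalling, receptor and protease genes passed the edgeR threshold.

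Markers of stellate cells, sinusoidal endothelium and smooth muscle varied in the same libraries. The 14 stellate cell markers, all tested, had a median log2 fold change of −0.22 and were negative in 12. Their summed TPM was 79.6, 85.3 and 82 in the controls and 69.8, 91.6 and 55.3 with inosine. The 12 sinusoidal endothelial markers had a median of −0.35, were negative in 11, and summed to 153, 171 and 175 TPM in the controls and 108, 175 and 132 TPM with inosine. For both cell types inosine 1 and 3 were below the controls and inosine 2 was above the other inosine libraries, as for Col3a1 and Col1a1. On TMM-scaled CPM the endothelial sum in inosine 2 was 329, between 319 in control 1 and 366 and 369 in the other controls. The smooth muscle markers (4 tested of 6) had a median of −0.63 and summed to 7.35, 7.67 and 6.1 TPM against 3.96, 7.03 and 3.51 TPM. On TMM-scaled CPM their sums did not overlap, at 7.02, 8.04 and 6.59 in the controls and 4.28, 6.07 and 3.93 with inosine. Cnn1, a smooth muscle marker named after its values were seen, was listed at 0 in inosine 1 and 3. A count of 0 allows up to 3 counts, so these zeros do not show a loss.

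Other cell types differed in pattern. The 10 Kupffer cell markers, those of liver macrophages, had a median of −0.23. They summed to 297, 396 and 387 TPM in the controls and 344, 321 and 295 TPM with inosine. On TMM-scaled CPM their sums were 328, 462 and 429 in the controls and 370, 317 and 346 with inosine. On that scale inosine 2 was the lowest library, unlike for the stellate and endothelial markers. Portal fibroblasts also make matrix, but their markers (7 tested of 9) had a median of 0.05 and were positive in 4. Their summed TPM was 17.9 to 25.6 in the controls and 15.2 to 26.1 with inosine. On TMM-scaled CPM these sums were 24.4, 36.8 and 23.7 in the controls and 29.9, 21.8 and 18.2 with inosine. There inosine 2 lay below every control and inosine 1 was the highest inosine library. Mesothelial markers (4 tested of 6) had −0.11, at 5.65 to 8.44 and 6.18 to 6.83 TPM. Cholangiocyte markers (5 tested of 8) had −0.13, at 32.6 to 41.2 and 40.7 to 69.7 TPM, nearly all of it Spp1, while Cftr was at 0 to 0.03 TPM. Their sums on TMM-scaled CPM were higher with inosine without overlap, at 30, 32.9 and 37.6 against 47.6, 56.5 and 38.6. The 5 estimates ran from −0.55 to 0.58. DESeq2 called 1 of the 5 higher, where it called 1.89% of all genes in either direction, and edgeR called 0. Hepatocyte markers (8 tested) had a median of 0.13 and were positive in 7. In whole liver, fewer cells of a type and less RNA per cell cannot be told apart, and the part of these markers in the matrix values was not tested.

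**Figure D4:**
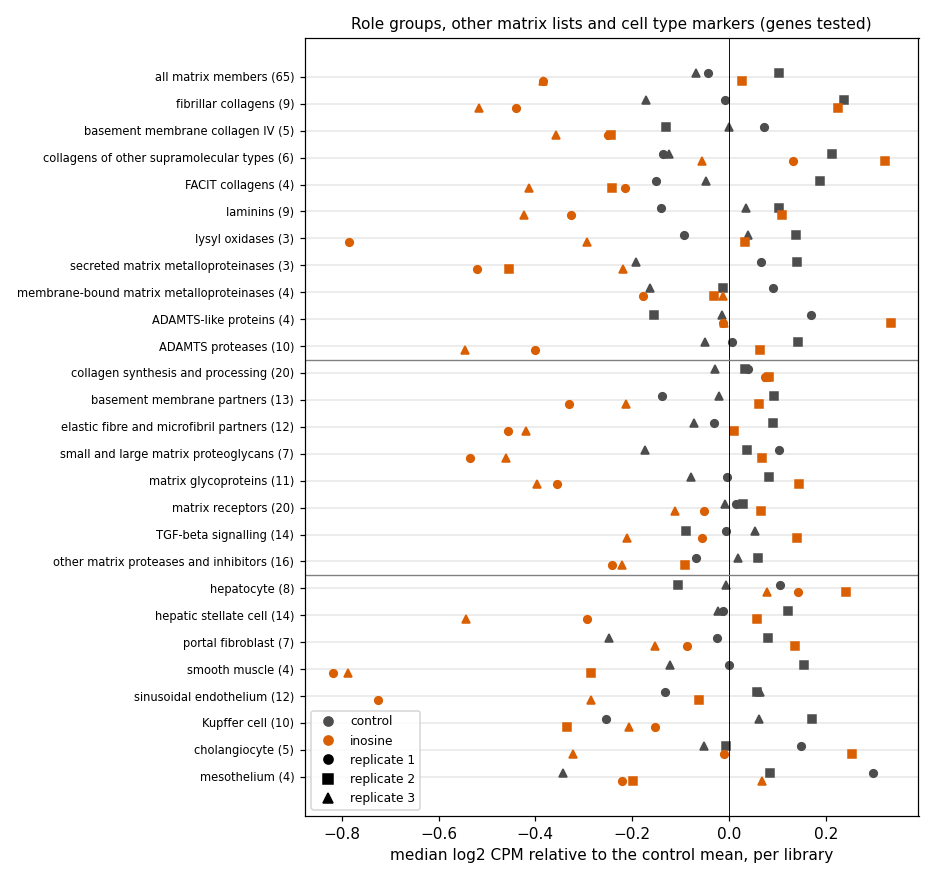
Median log2 CPM relative to the control mean in each library, for all 65 matrix members tested, role groups with at least 3 genes tested, the 8 other matrix lists and 8 marker lists, with the number of genes tested in brackets. Grey is control, orange inosine, and shapes are replicate numbers. For all members, inosine 1 and 3 stand at −0.38 and inosine 2 at 0.03, and the stellate and endothelial rows order the inosine libraries with 2 on the right as well.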

How the data were processed

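The data were a single table of bulk RNA-seq for 6 mouse liver libraries. Per the submitters' processing notes, Bowtie2, RSEM and GRCm39 were named, without versions. The authors deposited estimated counts (89.8% to 90.3% whole in each library), which were rounded, and FPKM, which was not used in a result. TPM was used as deposited by the authors. Log2 fold changes, p-values and q-values of their own comparison were also deposited. All 18 per-sample columns matched a library title. 1 line without content was left out.

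The main fit was edgeR 4.0.16 (R 4.3.3): TMM scaling, the default low-count filter, group as the only term and the quasi-likelihood test, two-sided, with Benjamini-Hochberg adjustment over 12326 genes. The SE is the log2 fold change divided by the square root of F. DESeq2 1.42.0, limma-voom 3.58.1, other scalings and filters, a replicate block and the omission of each library were alternatives. Recovery of known fold changes by edgeR was tested on simulated data, with 3 libraries per group. At an adjusted p under 0.05, edgeR called 71 of 100 genes changed 2-fold and 16 of 100 changed 1.5-fold. It also called 5 of 12126 unchanged genes. Differences near 1.5-fold would thus mostly be missed. The changed genes were drawn from all genes tested, and the members were measured less precisely than most of these. With same-numbered libraries, correlations of deviations were −0.037, −0.033 and −0.016, and with other pairs they ran from −0.082 to 0.117. No pairing by number was seen, but with 3 libraries per group these values cannot exclude one.

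Members and lists were chosen with earlier results of these data known. The naming rule took, per role group, up to 3 members tested with the smallest p and up to 2 with the highest mean TPM, non-overlapping members with a log2 fold change of at least 1 in size and a mean of at least 0.5 CPM, and per other list the 2 genes with the smallest p. Other genes named were chosen after their values were seen. A count of 0 allows up to 3 counts (0.171 to 0.183 CPM), counting error only.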

Additional observations from a re-analysis of the deposited data

How the results depend on the processing

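The absence of a called member held in the alternatives run, except under DESeq2, which called 1 (Col14a1). Over the whole table, calls numbered 1 in the main analysis, 7 with upper quartile scaling, 9 with no filter, 6 at a mean of at least 1 CPM, 6 with limma-voom, 233 with DESeq2 and 0 to 56 when 1 library was left out (56 without control 1). Members lower at an unadjusted p under 0.05 numbered 3 to 24 in those omissions (4.62% to 36.9%, against 4.90% to 9.60% of all genes) and members higher 1 to 3 (1.54% to 4.62%, against 4.85% to 9.87%), with 1 higher at a mean of at least 1 CPM. With the replicate block, 0 genes were called, and 14 members were lower (21.5%, against 6.43% of all genes) and 4 higher (6.15%, against 5.71%). The deposited TPM was a choice made after seeing the data. On it, 4 of the 65 members tested were lower without overlap, where 5.25% of all genes were. The number on TMM-scaled CPM was 12. On TPM 5 members were higher without overlap, where 11.7% of all genes were.

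Group medians moved with the library left out. Over the omissions, laminins ran from −0.06 to −0.36, lysyl oxidases from −0.09 to −0.63, fibrillar collagens from −0.10 to −0.39, ADAMTS proteases from −0.20 to −0.49, collagen IV from −0.27 to −0.65, membrane-bound metalloproteinases from −0.18 to 0.12 and ADAMTS-like proteins from −0.051 to 0.36. With no filter, the medians were −0.041 for FACIT collagens, 0.065 for secreted and 0.15 for membrane-bound metalloproteinases and 0.29 for ADAMTS-like proteins. At a mean of at least 1 CPM, they were −0.10 for the collagen VI chains, −0.60 for secreted and 0.22 for membrane-bound metalloproteinases. The cause was not tested, but these settings change which genes enter.

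Of 46 members tested that the naming rule took, 36 kept their sign in every one of the 13 alternatives that fitted them. Members under a mean of 1 CPM, such as Col4a4, were not fitted in the setting with that filter. The others turned when 1 library was left out, over ranges of −0.17 to 0.67 (Col27a1), −0.32 to 0.11 (Col6a2), −0.18 to 0.0095 (Col20a1), −0.055 to 0.042 (Col18a1), −0.36 to 0.0095 (Lamb2), −0.66 to 0.0043 (Fbln5), −0.63 to 0.20 (Loxl1), −0.36 to 0.35 (Mmp13), −0.23 to 0.12 (Adamtsl2) and −0.045 to 0.43 (Adamts7). Among members named outside the rule, Col5a2 ran from −0.35 to 0.12 and Col4a3 from −0.13 to 0.53. Col18a1 was also −0.028 with upper quartile scaling and −0.00016 at a mean of at least 1 CPM. Members near 1 CPM rest on few counts per library, which limits what can be detected for them.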
